A study of Homo sapiens with 42 samples.

Results

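IMR90 ER:RAS fibroblasts without 4-hydroxytamoxifen (4OHT) are the non-senescent control of a widely used model of oncogene-induced senescence, and here they were compared with the parental IMR90 line to describe what the engineered line expresses differently before its oncogene is switched on. The comparison uses 7 of the 42 libraries of the series, chosen by their labels: 3 of IMR90 ER:RAS and 4 of IMR90, all with DMSO and the control shRNA. IMR90 is an established strain of human lung fibroblasts, and IMR90 ER:RAS are the same cells with a retroviral vector for an oestrogen receptor fusion of oncogenic HRAS. Both groups carried a doxycycline-inducible control shRNA, were cultured for 7 days after DMSO, received doxycycline at 1 µg/ml for 72 h, and gave RNA at day 10. The labels list both lines as wild type. Whether the ER:RAS line is a clone or a pool, and whether the parental cells received an empty retrovirus, is not stated in the sources used here. The other libraries used beside this comparison are 14 DMSO libraries with 1 of 2 shRNAs against COPB2 (3 ER:RAS and 4 IMR90 for each) and 9 ER:RAS libraries with 100 nM 4OHT (3 for each shRNA). COPB2 encodes a coatomer subunit that the study depleted.

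RAS proteins are small GTPases that pass growth factor signals to the RAF, MEK and ERK kinases. Active ERK raises transcription factors such as the ETV and FOS families and also its own brakes, the DUSP phosphatases and the SPRY and SPRED proteins, so these transcripts are commonly read as a record of pathway activity. In the ER:RAS fusion the hormone-binding part of the receptor holds RAS inactive until 4OHT binds, and any signal that passes without the ligand is called leak. Sustained RAS signalling in fibroblasts first drives and then stops proliferation, and the arrested cells secrete the proteases, cytokines and growth factors of the senescence-associated secretory phenotype (SASP).

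Total counts were 17123550 to 19522297 in the 7 libraries and 13148194 to 23597310 over all 42. All 12 fibroblast markers passed the filter on low counts, and their summed level was 18800 to 25500 CPM (counts scaled to a common library total of 1e6) in ER:RAS and 22700 to 28100 in IMR90. Of 14 epithelial markers, 8 had no library above 3 counts, as did 8 of 11 leukocyte markers, 4 of 10 endothelial markers and 4 of 10 mesothelial and pericyte markers. KRT5, KRT14, SCGB1A1, NKX2-1, CDH5, CD3E and WT1 had no count in any of the 7. The epithelial sum was 156 to 225 CPM in ER:RAS and 88.1 to 187 in IMR90, the leukocyte sum 17.4 to 40.6 and 13.8 to 29.9, the endothelial sum 17.3 to 20 and 25.1 to 37.1, and the mesothelial and pericyte sum 77.2 to 162 and 128 to 196. The part of these other markers in the results was not tested. In bulk RNA, fewer cells of a type and less RNA per cell cannot be told apart. ER:RAS replicate 2 and IMR90 replicate 1 stood apart from the other libraries of their line: the deviation of their genes from the mean of the 7 libraries followed GC content with a correlation across genes of 0.72 and 0.57, against -0.64 to 0.12 in the other 5. Of the 53 genes called below, 45 were called again after a correction for GC content and length and 17 without both of these libraries. Each of the 53 that these Results describe and that lost its call in either way is given with its values in that fit. The labels do not say whether replicates came from separate cultures. A legend of the study describes the replicates of its COPB2 knockdown in senescent cells as independent experiments, without naming the DMSO libraries compared here, so for these the p-values measure the spread between libraries, which may be technical in part. Reads carry no molecular identifiers, and limits set by a count of 0 cover counting error only.

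The transcripts of the fusion gave the 2 largest fitted differences among the called genes. HRAS (chromosome 11, 532242 to 535576; RefSeq, GRCh38.p14) was 3710, 4700 and 3410 CPM in the 3 ER:RAS libraries and 50.9, 29.3, 34.2 and 29.1 in the 4 IMR90 libraries. The mean was 3940 ± 678 (SD, n = 3) against 35.9 ± 10.3 (SD, n = 4), a 110-fold ratio of means and a log2 difference of 6.78 (SE 0.37, adjusted p 3.39e-15, edgeR). Reads from the fusion and from the cell's own HRAS gene carry the same symbol and cannot be told apart. ESR1 (chromosome 6, 151656672 to 152129619), the oestrogen receptor gene whose hormone-binding part is in the fusion, was 1860, 2530 and 1510 CPM in ER:RAS, while no IMR90 library held more than 1 count. ESR1 was at least 12700-fold higher in ER:RAS against a floor of 3 counts per library. With 4OHT, HRAS was 4900 ± 1680 CPM (SD, n = 3) and ESR1 2480 ± 450, and the log2 differences from DMSO were 0.32 for HRAS (SE 0.33, adjusted p 0.471) and 0.33 for ESR1 (SE 0.33, adjusted p 0.449). The libraries with DMSO and with 4OHT overlapped for both genes, so the uninduced cells already held a high level of the fusion transcript.

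Beyond the fusion, few genes were called between the lines. The number of calls depended on the fit, so a gene without a call cannot be taken as equal in the lines. Of 15299 genes tested, 53 were called at an adjusted p under 0.05, or 0.346%. These were 34 genes higher in ER:RAS (0.222%) and 19 lower (0.124%), with HRAS and ESR1 among the higher, and 46 of the 53 differed by at least 1 on the log2 scale. At an unadjusted p under 0.05 there were 1763 genes (11.5%), 5.61% of those tested higher and 5.91% lower, and DESeq2 called 165 genes (1.08%). The 11.5% is above the share of 0.05 that this threshold gives by chance, so more genes may differ than were called. Deviations that genes of a library share, such as the GC trend, can also move this share, so it does not count the genes that differ. The median gene stood at 0.00, and 49.1% of genes had a positive difference. In all 53 called genes every library of a line stood apart from those of the other line, where 12.7% of all genes tested had no overlap, 5.80% with ER:RAS higher and 6.91% with ER:RAS lower. A fit of the 21 DMSO libraries alone called 284 of 14168 genes (2.00%), 120 higher and 164 lower, and the correction for GC content and length called 155 of 14678 (1.06%), 83 higher and 72 lower. Of the 53 genes, 48 were called again in the first of these fits and 45 in the second. A fit of only the 7 libraries called 2 genes, HRAS and ESR1.

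The same difference between the lines was measured in the DMSO libraries with COPB2 shRNA, where 23 genes were called with shRNA 1 (0.150%) and 42 with shRNA 2 (0.275%). With the replicate number as a block these counts were 74 and 1936, although same-numbered libraries of the lines did not deviate together throughout (correlations of -0.32 to 0.75 with shRNA 1 and -0.15 to 0.62 with shRNA 2). Of the 53 genes, 52 had the same sign with shRNA 1, 52 with shRNA 2 and 51 with both. There, 18 were called with both shRNAs, and 46 had no overlap between the lines in any of the 3 sets. These sets are not independent repeats, because most libraries of a line with the same replicate number deviated together across shRNAs, with a correlation across genes above 0.1 in 19 of 21 pairs. Of the 21 pairs, 15 correlated best with their own number. ER:RAS replicate 1 with the control shRNA stood at -0.23 and -0.51 against its own number with shRNA 1 and shRNA 2. No gene was called in edgeR's test of whether the line difference with the control shRNA departed from its mean with both COPB2 shRNAs (110 genes at an unadjusted p under 0.05, and 2 called by DESeq2).

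The rule for named genes asked for a call with each of the 3 shRNAs, no overlap in any of them and, in the group with more reads, 100 or more counts on average. It left 13 genes, 11 higher in ER:RAS and 2 lower. Besides HRAS and ESR1, the higher genes were L1CAM, MMP1, ITPKA, TMEM100, INMT, AQP1, INA, PLAU and NSG1, and the lower genes were GPNMB and SPOCK1. With the control shRNA, the 9 higher genes were 2.35 to 4.88 times their mean in IMR90. When each of the 7 libraries was left out in turn, ITPKA, INA, PLAU and SPOCK1 stayed called throughout, L1CAM was lost without IMR90 replicate 2 (adjusted p 0.0506) and GPNMB without ER:RAS replicate 3 (adjusted p 0.137). AQP1 was lost without replicate 2 of either line (adjusted p up to 0.108). TMEM100 was lost without IMR90 replicate 2 or 4 or ER:RAS replicate 3 (up to 0.0853), INMT without any of these 3 or ER:RAS replicate 2 (up to 0.125), MMP1 without IMR90 replicate 2, 3 or 4 or ER:RAS replicate 3 (up to 0.140) and NSG1 without any of the 7 (up to 0.246). Each difference kept its sign.

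L1CAM, a cell adhesion molecule of the immunoglobulin family (chromosome X, 153861514 to 153886173), was 11.9, 11.3 and 8.66 CPM in ER:RAS and 3.65, 1.42, 1.66 and 2.00 in IMR90. Its log2 difference was 2.29 (SE 0.43, adjusted p 0.00598). No overlap between the lines was a condition of the rule for L1CAM and the other named genes. MMP1, the interstitial collagenase (chromosome 11, 102789919 to 102798160), was 48.8, 46.6 and 70.6 CPM in ER:RAS and 12.2, 7.84, 13 and 13 in IMR90. The MMP1 difference was 2.27 (SE 0.48, adjusted p 0.0201), with IMR90 replicate 2 lower than its 3 neighbours. PLAU, the urokinase plasminogen activator that starts pericellular proteolysis (chromosome 10, 73908832 to 73917494), was the most abundant of the 9, at 704, 873 and 678 CPM in ER:RAS and 364, 248, 247 and 295 in IMR90. PLAU differed by 1.38 (SE 0.25, adjusted p 0.00492). ITPKA, a kinase of inositol trisphosphate that also bundles actin (chromosome 15, 41493874 to 41503551), was 5.25, 5.51 and 6.40 CPM against 2.45, 1.06, 0.930 and 0.579, a log2 difference of 2.20 (SE 0.37, adjusted p 0.00267). IMR90 replicate 1, one of the 2 libraries with the GC trend, was the highest of its line for L1CAM, ITPKA and PLAU. Without both such libraries their log2 differences were 2.60, 2.75 and 1.39 and stayed called, while MMP1 stood at 2.41 and was no longer called.

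TMEM100, a small membrane protein downstream of BMP signalling (chromosome 17, 55719627 to 55732081), was 13.1, 13.3 and 16.7 CPM in ER:RAS and 3.17, 2.89, 5.28 and 3.26 in IMR90. INMT, a methyltransferase abundant in lung (chromosome 7, 30752135 to 30757602), was 20.4, 30.8 and 33.5 CPM against 9.63, 5.73, 9.34 and 6.42. The readthrough gene INMT-MINDY4, which overlaps INMT, had no count in any library. AQP1, a water channel (chromosome 7, 30911853 to 30925516), was 4.89, 7.92 and 5.10 CPM against 2.21, 1.42, 2.25 and 1.74. The log2 difference was 1.97 for TMEM100 (SE 0.40, adjusted p 0.0129), 1.86 for INMT (SE 0.39, adjusted p 0.0165) and 1.64 for AQP1 (SE 0.31, adjusted p 0.0081). Each of these 3 genes separated the lines library by library, as the rule for named genes required. They stayed called after the correction for GC content and length but not without both libraries with the GC trend, where the log2 difference was 1.96 for TMEM100 (adjusted p 0.111), 1.91 for INMT (0.111) and 1.47 for AQP1 (0.123).

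INA, the neurofilament protein internexin alpha (chromosome 10, 103277138 to 103290346), was 13.2, 14.6 and 11.2 CPM in ER:RAS and 5.38, 4.22, 4.65 and 4.16 in IMR90, a log2 difference of 1.5 (SE 0.23, adjusted p 0.000856). NSG1, a protein of neuronal endosomes (chromosome 4, 4386532 to 4419058), was 9.73, 11.7 and 13.1 CPM against 4.97, 5.00, 5.77 and 3.84, a difference of 1.23 (SE 0.29) whose adjusted p of 0.0471 lay just under the threshold. NSG1 was not called after the correction for GC content and length (1.18, adjusted p 0.0696) or without both libraries with the GC trend (1.23, adjusted p 0.232). INA and NSG1 are best known from neurons. GPNMB, a transmembrane glycoprotein of lysosomes and melanosomes (chromosome 7, 23246775 to 23275108), was lower in ER:RAS, at 13.7, 15.9 and 7.22 CPM against 34, 37.4, 21.6 and 37.0, a log2 difference of -1.41 (SE 0.27, adjusted p 0.0086). SPOCK1, a secreted proteoglycan (chromosome 5, 136975298 to 137499326), was 6.06, 5.83 and 4.72 CPM against 11.7, 14.3, 11 and 13.8, a difference of -1.20 (SE 0.20, adjusted p 0.00202). The highest ER:RAS library was below the lowest IMR90 library for both genes, as the rule for named genes required.

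**Figure D1:**
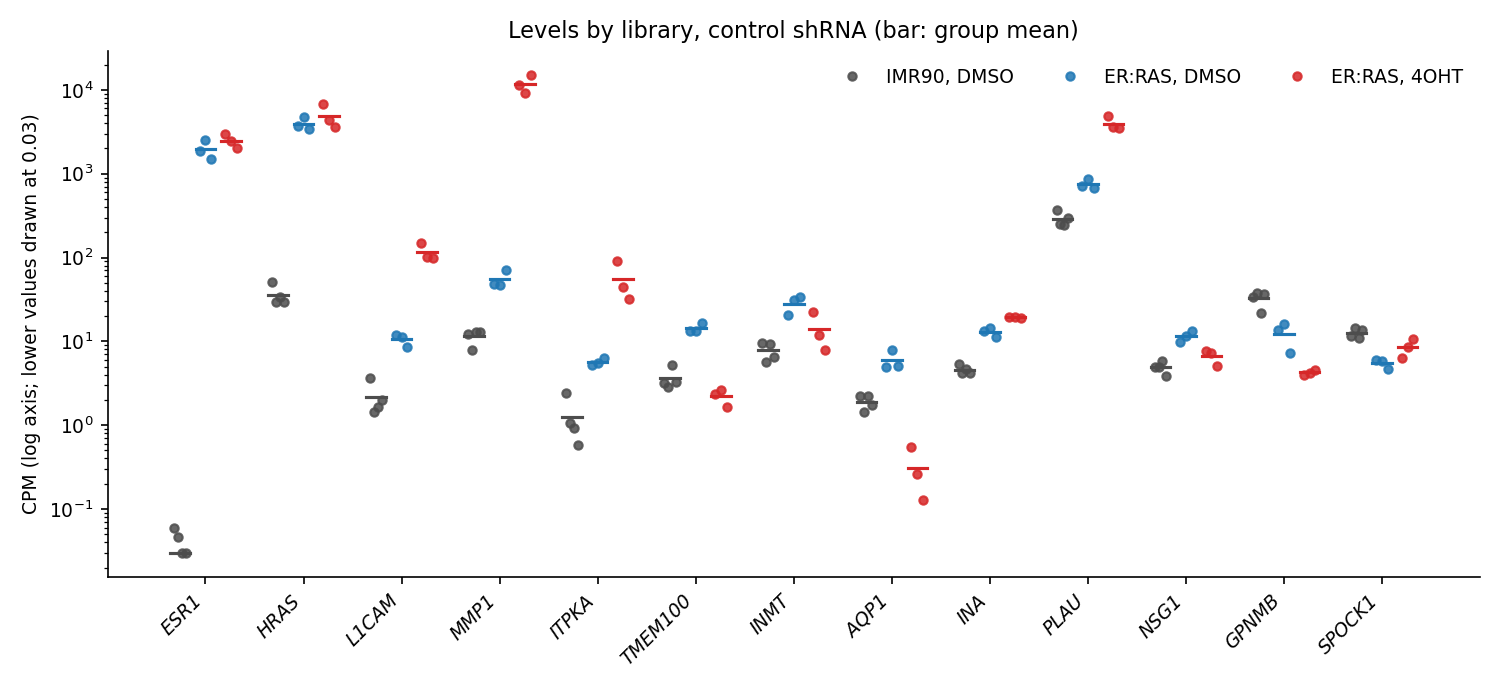
The level of each named gene (CPM, log axis) in every library of 3 groups with the control shRNA: IMR90 with DMSO, ER:RAS with DMSO and ER:RAS with 4OHT. Points are libraries and short bars group means; MMP1 sat at 7.84 to 13 CPM in IMR90, 46.6 to 70.6 in uninduced ER:RAS and 9110 to 15200 with 4OHT, whereas TMEM100 and AQP1 were highest in uninduced ER:RAS.

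**Figure D2:**
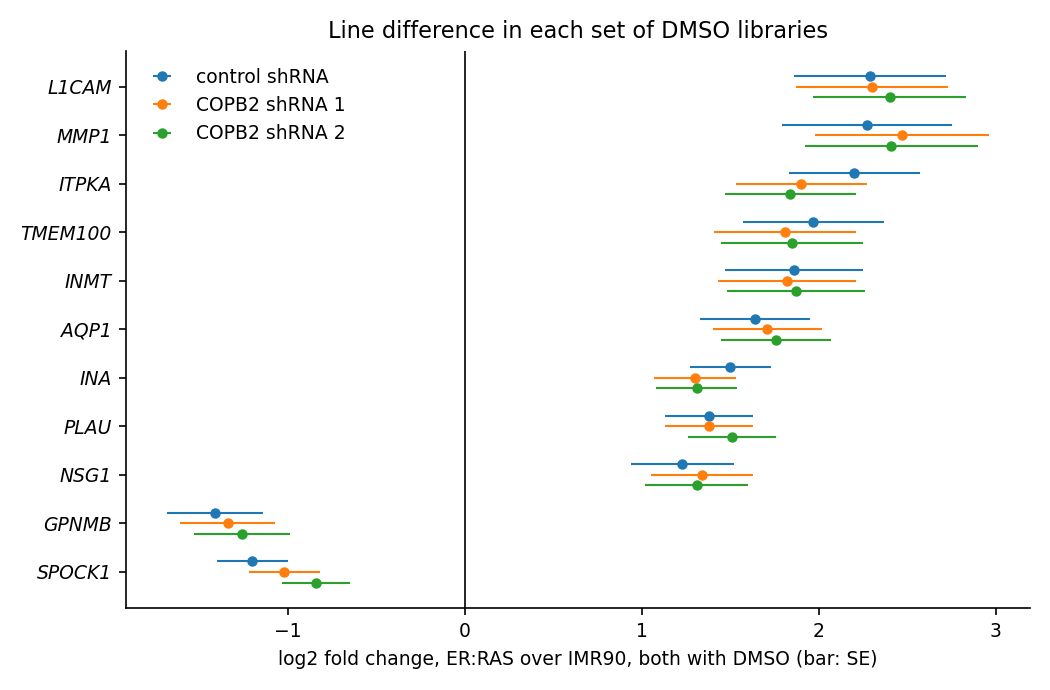
The log2 difference between ER:RAS and IMR90 with DMSO for the named genes other than HRAS and ESR1, with the control shRNA and with each COPB2 shRNA. Points are the fitted differences and bars their standard errors; the 9 higher genes lay between 1.23 (NSG1) and 2.47 (MMP1) in the 3 sets and GPNMB and SPOCK1 between -1.41 and -0.84.

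The other 40 called genes fell outside the rule, and those named in the next sentences were chosen after their values were seen, ordered by what they encode. Of the 53, 18 had a mean under 100 counts in the higher group, so several log2 differences are best read as bounds. CST1 and CST4, secreted cystatins of near-identical sequence whose reads may be split between them, had at most 2 counts and no count in an IMR90 library and were at least 7.47-fold and 3.34-fold higher in ER:RAS. INSC, an adaptor of spindle orientation, was at least 5.46-fold higher. Among neuropeptide genes, SCG2 was 16.6, 16.2 and 19.3 CPM against 3.83, 4.54, 3.67 and 6.11 (log2 difference 1.94, SE 0.38, adjusted p 0.0106). NPY was 1.32, 6.15 and 1.83 CPM against 0.419, 0.229, 0.0489 and 0.105, a difference of 3.93 with the control shRNA that stood at 0.47 with COPB2 shRNA 1 and -0.98 with shRNA 2. NTSR1, the neurotensin receptor, was 6.16, 8.17 and 4.67 CPM against 2.69, 1.19, 0.783 and 2.05. The higher genes also held KIFC1, a mitotic kinesin, at 8.46, 9.44 and 9.62 CPM against 4.91, 3.39, 4.11 and 2.95 (1.26, SE 0.21, adjusted p 0.00223), and UBE2T and TACC3, which act in DNA crosslink repair and on the spindle. Without both libraries with the GC trend, CST4, INSC, SCG2, NPY, NTSR1 and TACC3 were no longer called (adjusted p 0.0854 to 0.2). The log2 difference was then 0.95 for TACC3, 1.91 for SCG2, 2.01 for NTSR1 and 3.54 for NPY. It was 5.79 for CST4 and 3.13 for INSC, fitted against IMR90 libraries at or under 3 counts. All 6 were called after the correction for GC content and length. When each of the 7 libraries was left out in turn, CST1 and KIFC1 stayed called throughout, NPY and UBE2T in 6 fits and SCG2 in 5. TACC3 kept the call in 3 of these fits, and CST4, INSC and NTSR1 in 2. CST4 was not called in the fit of the 21 DMSO libraries.

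Several genes lower in ER:RAS encode matrix or cell surface proteins. THBS2, a matricellular thrombospondin, was 68.3, 50.2 and 48.2 CPM in ER:RAS and 174, 230, 143 and 179 in IMR90 (log2 difference -1.71, SE 0.36, adjusted p 0.0186). ITIH5, which stabilises hyaluronan, differed by -2.18, MGP, the matrix Gla protein, by -1.90, and HMCN1, a basement membrane fibulin, by -1.95. ADAM12, a metalloprotease of activated mesenchyme, was 4.38, 5.07 and 4.47 CPM against 10.6, 10.7, 9.49 and 10.9 (-1.17, SE 0.20, adjusted p 0.00409), and ITGA11, a collagen receptor subunit, differed by -1.03. DAPK1, a death-associated kinase, differed by -1.93 at levels of 0.408 to 0.570 CPM in ER:RAS and 1.56 to 2.05 in IMR90. For each of these genes the libraries of the lines did not overlap. After the correction for GC content and length MGP (-1.87, adjusted p 0.0709) and ITGA11 (-0.72, adjusted p 0.0692) were not called. Without both libraries with the GC trend ADAM12 alone of these 7 genes stayed called, with log2 differences of -1.66 for THBS2, -2 for ITIH5, -1.79 for MGP, -1.92 for HMCN1, -1 for ITGA11 and -2.12 for DAPK1 (adjusted p 0.0589 to 0.202). ITGA11 and THBS2 each kept the call in 2 of the 7 fits that left out a library, MGP in 3 and HMCN1 in 1.

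To set these differences beside the response to the activated oncogene, 4OHT was compared with DMSO in ER:RAS cells with the control shRNA, where 41.9% of genes were called. This comparison shares its 3 DMSO libraries with the line comparison, so a high value in those libraries raises the line difference and lowers the 4OHT difference. With 4OHT, MMP1 rose to 11900 ± 3090 CPM (SD, n = 3; log2 difference 7.75), L1CAM to 116 ± 27.8 (3.45), ITPKA to 55.5 ± 30.7 (3.27) and PLAU to 3960 ± 756 (2.40). These 4 genes were thus intermediate in uninduced ER:RAS cells, above the parental line and below the induced cells. CST1, CST4, INSC and NTSR1 rose with 4OHT as well, by 9.09, 8.73, 3.96 and 4.93. By contrast, TMEM100 fell to 2.21 ± 0.512 CPM with 4OHT, by 2.7 on the log2 scale, and AQP1 fell to 0.311 ± 0.211, by 4.31. INMT, NSG1 and GPNMB fell by 1.03, 0.78 and 1.52, SPOCK1 rose by 0.62, and INA differed by 0.57 (adjusted p 0.0576).

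The 4OHT response was also taken from the 12 ER:RAS libraries with COPB2 shRNA, none of which is in the line comparison although they carry the same replicate numbers. There 57.6% of genes were called, 26.7% of those tested raised and 30.9% lowered. Of the 34 genes higher in uninduced ER:RAS, 19 were raised by 4OHT (55.9%) and 8 were lowered (23.5%). Of the 19 lower genes, 3 were raised (15.8%) and 10 lowered (52.6%). A wider view used the genes called in these 12 libraries with a change of at least 2 on the log2 scale, without HRAS and ESR1. The 1022 raised genes had a median line difference of 0.20 and were higher in uninduced ER:RAS in 60.4% of cases, with 12 called higher and 1 lower (1.27% called). The 1448 lowered genes had a median of -0.23 and were higher in 30.5% of cases, with 4 called higher and 7 lower (0.76% called). Over all genes tested the median was 0.00, and after the correction for GC content and length the medians of both sets were 0.19 and -0.27. With the control shRNA, the 4OHT differences of the same 1022 and 1448 genes had medians of 3.32 and -2.81. Both sets were chosen for a large 4OHT change, so the size of their 4OHT and line medians cannot be compared. The filter on low counts used all 42 libraries and left 15299 genes, against 14168 in the 21 DMSO libraries alone. Genes near the floor in the 7 libraries could thus enter through high levels with 4OHT. CSF2 was tested with at most 2 counts in the 7 libraries and 349 to 626 CPM with 4OHT and the control shRNA. The part of such genes in these counts and medians was not tested.

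Genes that ERK induces were read as a list of their own. Its members, like those of the other lists, were chosen with earlier results of these data known. The part of this choice in the values was not tested. Of 36 feedback and target genes, all tested, 1 was called higher and 0 lower in uninduced ER:RAS. Their median log2 difference was 0.40, and 28 of 36 were positive. In 11 genes every ER:RAS library was above every IMR90 library, and in 3 genes every one was below, or 14 of 36 where 12.7% of all genes did not overlap. At an unadjusted p under 0.05, 12 were higher and 2 lower, where 11.5% of all genes passed. DESeq2 called 3 higher and 1 lower, against 1.08% of all genes. The median was 0.48 and 0.53 with both COPB2 shRNAs, 0.29 after the correction for GC content and length, where 6 were called higher and 0 lower, and 0.44 without both libraries with the GC trend. In the fit of the 21 DMSO libraries, 5 were called higher and 3 lower, where 2.00% of all genes were called. With 4OHT the same list had 30 genes called higher and 2 lower, and a median of 2.15.

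The gene called was ETV4, an ETS transcription factor downstream of ERK (chromosome 17, 43527846 to 43546340), at 23.1, 34.6 and 23.4 CPM in ER:RAS and 17.4, 10.9, 9.15 and 12.3 in IMR90. Its log2 difference was 1.12 (SE 0.26, adjusted p 0.0449), it was 1.11 and 1.16 with both COPB2 shRNAs, and 4OHT raised it by 2.30. Of the 7 fits that left out a library, only that without IMR90 replicate 1 kept the call, and the log2 difference was 0.91 to 1.32 (adjusted p up to 0.294). ETV4 was called after the correction for GC content and length (0.85) but not without both libraries with the GC trend (1.11, adjusted p 0.168). PHLDA2, a pleckstrin homology protein, was 43.4, 57.1 and 61.1 CPM against 28.8, 16.8, 24.1 and 19.4, without overlap, and its difference of 1.27 (SE 0.31) had an adjusted p of 0.063. The phosphatase gene DUSP4 was 6.67, 9.12 and 6.74 CPM against 5.15, 3.03, 3.86 and 3.58 (0.94, SE 0.26, adjusted p 0.113). DUSP5 was 53.5, 61.1 and 55.8 CPM against 48.8, 24.7, 34.9 and 32.3 (0.69), and SPRY4 was 36.6, 38.5 and 34.3 against 28.7, 23, 22.3 and 21 (0.62). TNFRSF12A, the receptor of TWEAK, was 102, 143 and 109 CPM against 90.6, 49.2, 56.2 and 63.8 (0.86, adjusted p 0.0907). All of these separated the lines library by library, but IMR90 replicate 1 lay closest to ER:RAS in each of them. DUSP6, the phosphatase most specific to ERK, overlapped between the lines, at 47.9, 25.2 and 66.0 CPM against 27.1, 23.4, 32.3 and 23.5 (0.80, adjusted p 0.369). With 4OHT DUSP4, DUSP5, DUSP6 and SPRY4 rose by 4.16, 3.42, 3.41 and 2.49.

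Of the immediate early genes in the list, FOS, EGR1, EGR2 and EGR3 had negative differences, whereas JUNB, FOSL1, IER2 and IER3 had positive ones, and none of the 8 was called. FOS was 2.65, 3.17 and 2.79 CPM in ER:RAS and 5.21, 5.23, 4.50 and 6.37 in IMR90 (log2 difference -0.89, SE 0.64, adjusted p 0.529), and EGR2 was 2.04, 3.10 and 1.30 against 4.49, 4.17, 3.47 and 5.79 (-1.07, SE 0.35, adjusted p 0.225). For both genes the libraries of the lines did not overlap, with ER:RAS lower. EGR1 overlapped, at 88.3, 147 and 82.0 CPM against 166, 125, 113 and 144 (-0.38). In the fit of the 21 DMSO libraries FOS, EGR2 and EPHA4 were the 3 genes called lower, while DUSP4, SPRY4, ETV4, TNFRSF12A and PHLDA2 were the 5 called higher. With 4OHT FOS, EGR1 and EGR2 rose by 2.01, 1.80 and 2.08.

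**Figure D3:**
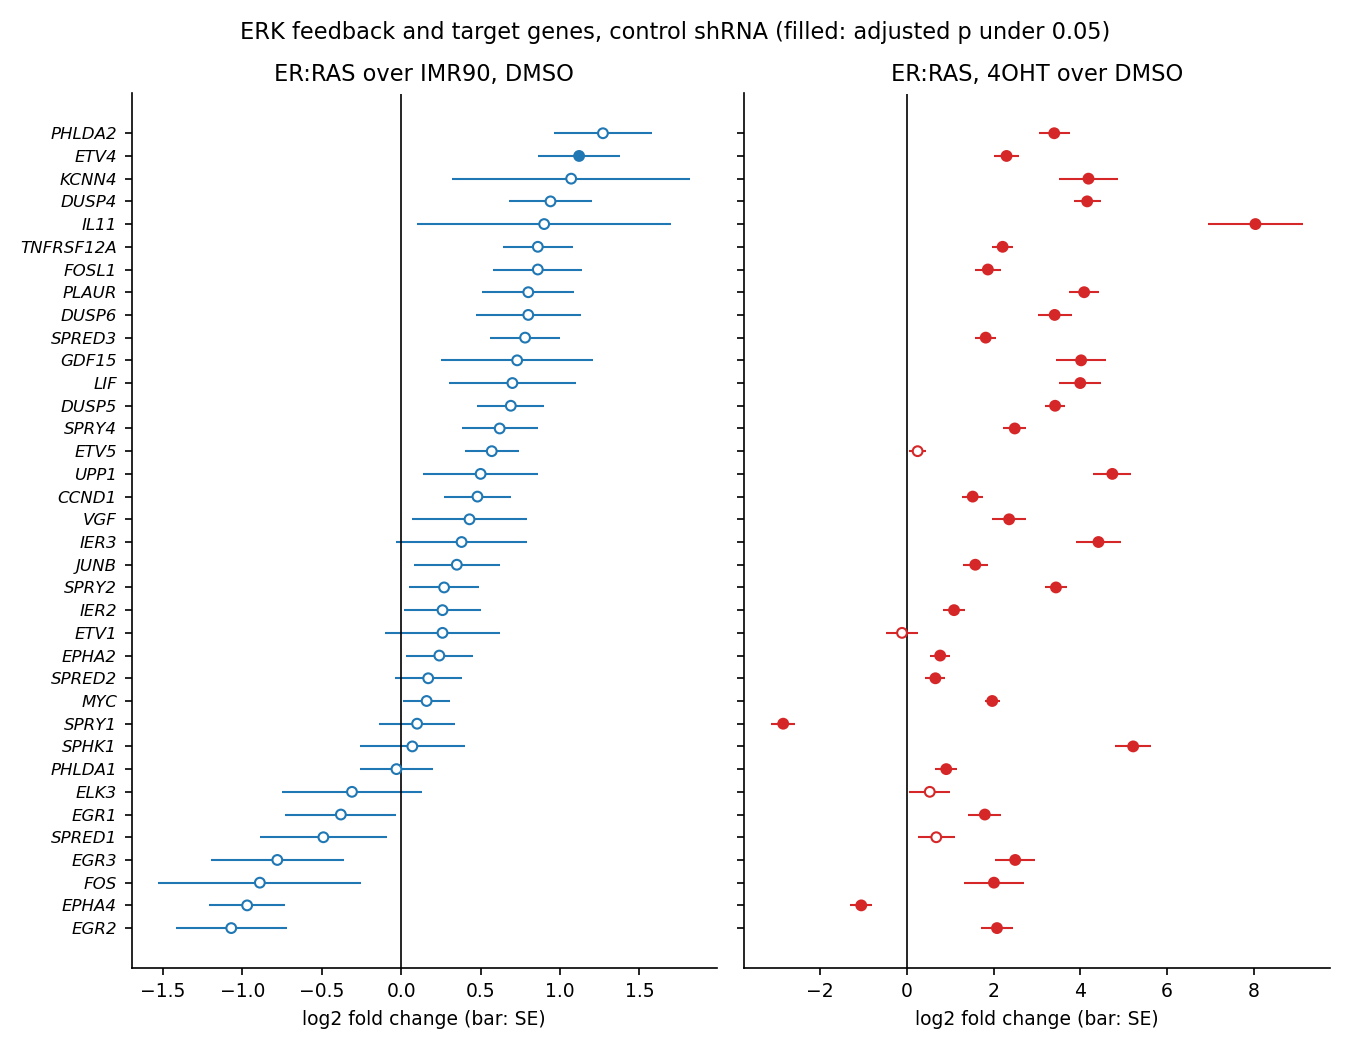
The log2 difference of each of the 36 ERK feedback and target genes between uninduced ER:RAS and IMR90 and, side by side, between 4OHT and DMSO in ER:RAS cells, all with the control shRNA. Points are fitted differences and bars standard errors; the line differences had a median of 0.40 and the 4OHT differences a median of 2.15, and both share the 3 ER:RAS DMSO libraries.

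The pathway between receptor and ERK showed no call. Of 26 components, 0 passed the test in either direction with edgeR or DESeq2. An unadjusted p under 0.05 was found for 2 of them, both higher in ER:RAS, and for 11.5% of all genes. The median of the 26 components, -0.24, turned to 0.04 after the correction for GC content and length, so no direction is given for them. NRAS, one of the RAS genes, moved from a log2 difference of -0.35 to 0.06 with this correction. Of the EGF receptor and its ligands, 10 of 12 were tested and 0 called (2 at an unadjusted p under 0.05, 0 by DESeq2). EGFR itself was 130, 102 and 89.3 CPM against 170, 261, 166 and 211 (-0.92, SE 0.32, adjusted p 0.27), with each ER:RAS library below each IMR90 library. Of 15 classical oestrogen receptor targets tested of 20, 0 were called by either tool. At an unadjusted p under 0.05, 2 were higher and 4 lower, where 5.61% of all genes were higher and 5.91% lower. The median of the 15 was -0.28, against 0.13 and -0.12 with both COPB2 shRNAs.

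Of the SASP, 40 of 43 genes were tested, 2 rose and 0 fell, and the median difference was 0.46. Of the 43, 7 had no library above 3 counts among the 7 compared, so some tested genes lay near the floor in both lines. The called genes were MMP1 and PLAU, which the rule for named genes also picked. DESeq2 called 3 higher and 0 lower, against 1.08% of all genes. The fit of the 21 DMSO libraries tested 33 of the list, with a median of 0.36. It called 7 of these higher and 1 lower, against 2.00% of all genes. Genes of the list without overlap between the lines were 11 higher and 1 lower, or 12 of 40 where 12.7% of all genes did not overlap. At an unadjusted p under 0.05, 6 were higher and 1 lower, where 5.61% of all genes were higher and 5.91% lower. STC1, the glycoprotein stanniocalcin, was 46.0, 46.1 and 48.3 CPM in ER:RAS and 24.1, 25.1, 21.2 and 26.6 in IMR90, with little spread within a line, yet its difference of 0.95 had an SE of 0.67 and an adjusted p of 0.525 in a fit whose spread was estimated over all 12 groups. BMP2 was 6.01, 3.93 and 4.86 CPM against 1.20, 1.88, 1.57 and 1.84 (1.60, SE 0.56, adjusted p 0.27), and SERPINB2, the plasminogen activator inhibitor 2 gene, was 2.55, 3.61 and 2.31 against 0.838, 0.550, 0.930 and 0.316 (2.09, SE 0.65, adjusted p 0.193). The tissue plasminogen activator PLAT was 1030, 1450 and 1060 CPM against 691, 568, 481 and 612 (1.00, adjusted p 0.422). These 4 genes separated the lines without passing the test. The chemokine CXCL8 did not, at 8, 1.71 and 14.9 CPM against 1.44, 0.872, 1.61 and 2.00. With 4OHT, 33 genes of the list were called higher, with a median of 4.14 over the list, and CXCL8 reached 2760 to 9410 CPM.

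Apart from the fusion genes, the cell cycle list had the highest share of positive differences of all lists. Of 35 cell cycle genes, 34 were positive in uninduced ER:RAS, 2 were called higher and 0 lower, and the median was 0.75. At an unadjusted p under 0.05, 23 were higher and 0 lower, DESeq2 called 7 higher, and 16 separated the lines without overlap, all higher, where 5.61% of all genes were higher at that p and 5.80% were higher without overlap. Over all genes DESeq2 called 1.08%. The median of the list was 0.58 and 0.61 with both COPB2 shRNAs, where 0 of its genes were called with either. It was 0.72 after the correction for GC content and length and 0.81 without both libraries with the GC trend. The summed level of the list was 596 to 665 CPM in ER:RAS and 387 to 471 in IMR90. TYMS, thymidylate synthase, was 40, 35.1 and 41.9 CPM in ER:RAS and 23.5, 15.8, 21.1 and 14.3 in IMR90 (log2 difference 1.06, SE 0.21, adjusted p 0.00984). CCNB2, the mitotic cyclin B2, was 8.51, 8.55 and 9.48 CPM against 5.56, 3.30, 4.01 and 4.53 (1.03, SE 0.24, adjusted p 0.0463). The survivin gene BIRC5 was 15.7, 19.8 and 18.6 CPM against 8.97, 4.50, 6.70 and 5.48 (1.5, SE 0.41, adjusted p 0.113), and the mitotic kinase gene PLK1 was 9.22, 14.1 and 8.47 against 6.34, 5.32, 4.75 and 5.11 (0.98, SE 0.24, adjusted p 0.0709). All 4 were higher in every ER:RAS library. TYMS was not called without IMR90 replicate 2 or 4 or ER:RAS replicate 3 (adjusted p up to 0.0715), and CCNB2 was called only without IMR90 replicate 1 (up to 0.236 otherwise). Without both libraries with the GC trend TYMS stayed called, and CCNB2 did not (1.19, adjusted p 0.0993). With 4OHT the list went the other way, with 27 genes called lower, 5 higher and a median of -1.79, and BIRC5 fell to 0.190 to 0.542 CPM.

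Markers of arrest gave no call. Of 14 senescence and arrest genes, 0 were called by edgeR or DESeq2 and 0 had an unadjusted p under 0.05, with a median of 0.03. CDKN1A, the p21 gene, was 781, 1090 and 637 CPM in ER:RAS and 937, 350, 434 and 401 in IMR90 (log2 difference 0.66, SE 0.36, adjusted p 0.459), the parental replicate 1 lying within the ER:RAS range. CDKN2A, the p16 and ARF gene, was 93.2, 144 and 111 CPM against 85.1, 59.2, 72.2 and 61.7 (0.74, SE 0.37, adjusted p 0.44), higher in every ER:RAS library. With 4OHT CDKN1A rose by 2.58 and CDKN2A by 1.72. Of 24 p53 targets, 0 were called by either tool, and the median was 0.39. At an unadjusted p under 0.05, 5 of these targets were higher, where 5.61% of all genes were.

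The lists of collagens, of other matrix genes and of lung mesenchyme genes had negative medians, and 0 of their genes were called. Over 25 tested collagens the median log2 difference was -0.41, with 5 lower and 2 higher at an unadjusted p under 0.05. Over 31 matrix, elastic fibre and proteoglycan genes it was -0.34, with 10 lower and 0 higher, and over 29 lung mesenchyme identity genes -0.41, with 6 lower and 1 higher. Of all genes tested, 5.91% were lower and 5.61% higher at that p. DESeq2 called 0 collagens, 3 matrix genes and 3 mesenchyme genes, all lower, against 1.08% of all genes. The 3 medians were nearer to 0 with COPB2 shRNA, at -0.18, -0.25 and -0.18 with shRNA 1 and -0.23, -0.18 and -0.16 with shRNA 2. After the correction for GC content and length they were -0.36, -0.35 and -0.28. With this correction the matrix genes ELN, FBLN2, LUM and LTBP2 and 1 lung mesenchyme gene were called lower. The fit of the 21 DMSO libraries called 3 collagens, 6 matrix genes and 4 lung mesenchyme genes lower and 0 higher, against 2.00% of all genes. ELN, tropoelastin, was 4.94, 6.46 and 4.96 CPM in ER:RAS and 11.2, 17.3, 12.4 and 16.5 in IMR90 (-1.40, SE 0.46, adjusted p 0.225), and FBN1, the microfibril protein fibrillin 1, was 158, 116 and 88.6 against 254, 366, 283 and 233 (-1.23, SE 0.34, adjusted p 0.113). Both were lower in each ER:RAS library. FN1, fibronectin, was 3300, 3120 and 1990 CPM against 5820, 5640, 3930 and 4800 (-0.85, adjusted p 0.225), again without overlap. COL1A1 overlapped between the lines, at 4180, 4750 and 3300 CPM against 6010, 6070, 5150 and 4250 (-0.40).

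FGF10, the mesenchymal growth factor of lung budding, came closest to a call among the lung mesenchyme genes, at 3.97, 1.96 and 3.90 CPM in ER:RAS and 6.64, 20.5, 18.3 and 22.7 in IMR90 (log2 difference -2.37, SE 0.58, adjusted p 0.0689). IMR90 replicate 1 was nearer to ER:RAS than to the rest of its own line. WNT2, a WNT ligand of lung mesenchyme, was 26.9, 36 and 29.1 CPM against 68.2, 85, 65.9 and 78.1 (-1.28, SE 0.39, adjusted p 0.19), and the hedgehog receptor gene PTCH1 was 19.4, 15.9 and 14.5 against 28.5, 33.3, 29.6 and 28.5 (-0.85, SE 0.24, adjusted p 0.118). GREM1, a BMP antagonist, was 494, 229 and 589 CPM against 1000, 1210, 1470 and 1260 (-1.5, SE 0.39, adjusted p 0.0932). The lines did not overlap for these 4 genes. With 4OHT WNT2 was at 0 in all 3 libraries, where 3 counts are 0.165 to 0.172 CPM, and FGF10 fell by 5.89 and PTCH1 by 2.27.

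**Figure D4:**
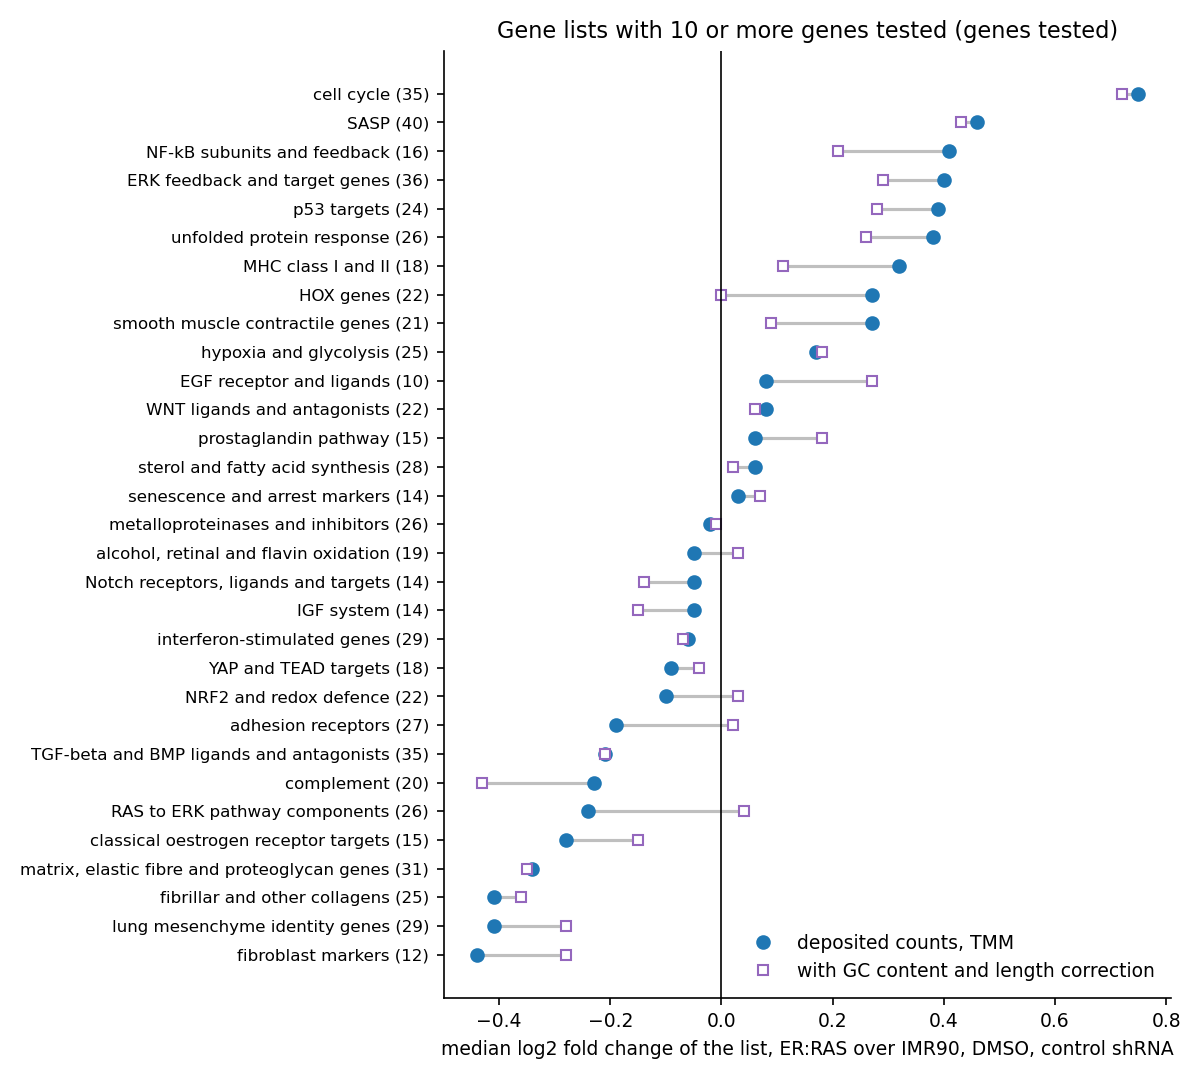
The median log2 difference between uninduced ER:RAS and IMR90 for each gene list, as measured and after the correction for GC content and length. Each point is the median over the tested genes of a list; the cell cycle list stood at 0.75 and 0.72, the ERK targets at 0.40 and 0.29, and the RAS to ERK components at -0.24 and 0.04.

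**Figure D5:**
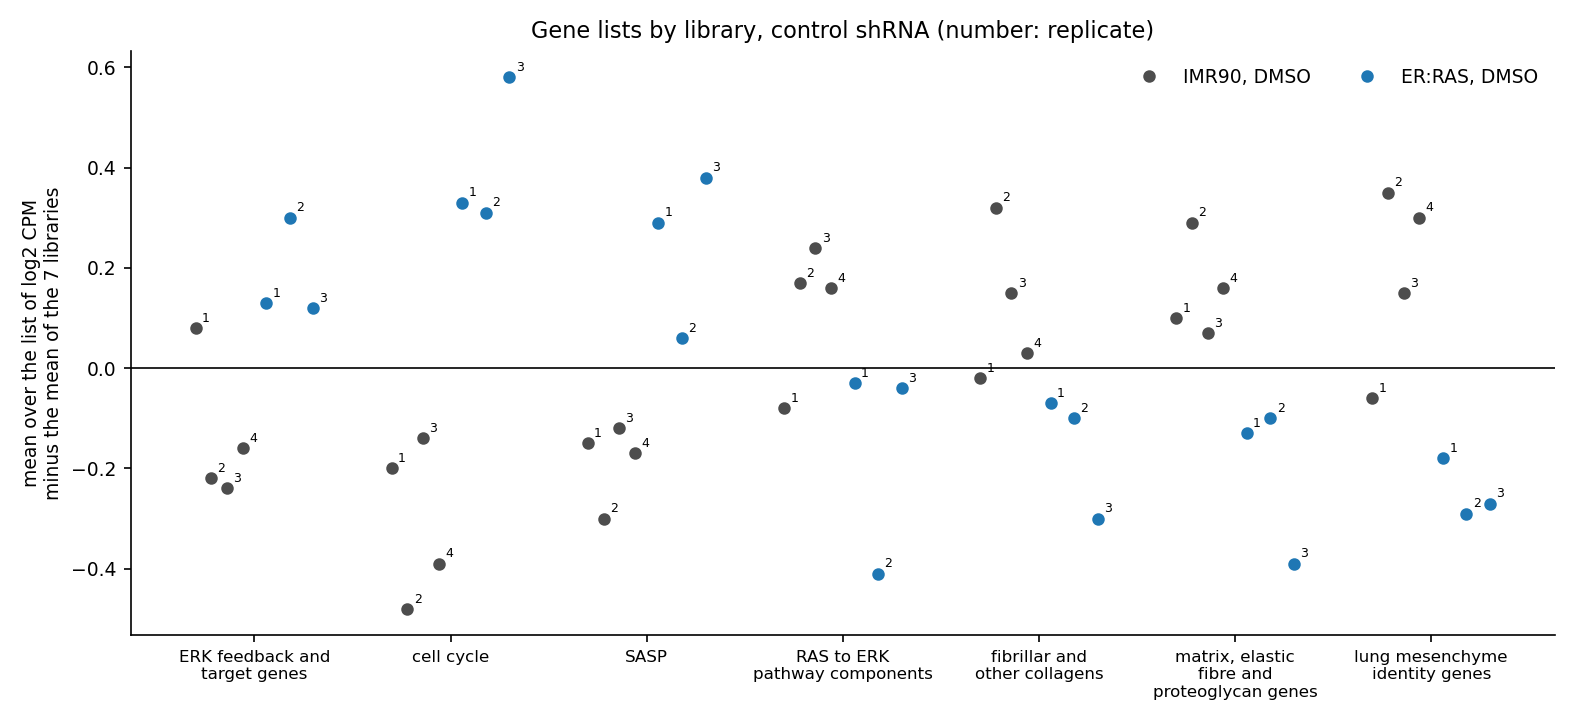
The mean over a list of each library's log2 CPM minus the mean of the 7 libraries, for 7 lists. Points are libraries labelled by replicate number; the 3 ER:RAS libraries lay above the 4 IMR90 libraries for the ERK targets, cell cycle and SASP lists, and below them for the collagen, matrix and lung mesenchyme lists.

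Of the 36 lists with a tested member, 29 had no called gene, with medians from -0.44 to 0.55. The remaining calls were few. Of 22 tested WNT ligands, antagonists and targets, 2 were higher and 1 lower. These were NKD2, an inhibitor of WNT signalling, at 1.27, 2.03 and 2.17 CPM against 0.299, 0.138, 0.196 and 0.316 (2.93, SE 0.46, adjusted p 0.000989), the ligand WNT7B at 0.611, 0.697 and 0.577 against 0.179, 0.0917, 0.196 and 0.0527 (2.22, SE 0.52, adjusted p 0.0423), and the WNT target AXIN2 at 5.60, 5.45 and 5.49 against 9.21, 10.6, 9.15 and 11.3 (-0.87, SE 0.19, adjusted p 0.0284). The libraries of the lines did not overlap for these 3 genes. NKD2 stayed called without each library, while WNT7B was called only without IMR90 replicate 1 (adjusted p up to 0.201 otherwise) and AXIN2 only without IMR90 replicate 1 or 3 (up to 0.151 otherwise). Without both libraries with the GC trend NKD2 stayed called, and WNT7B (2.31, adjusted p 0.174) and AXIN2 (-0.90, adjusted p 0.148) did not. Among 26 metalloproteinases and inhibitors MMP1 was higher and ADAM12 lower, and among 27 adhesion receptors L1CAM was higher and ITGA11 lower. The unfolded protein response list had 21 of 26 genes positive, a median of 0.38 and 0 calls by either tool. At an unadjusted p under 0.05, 8 of its genes were higher and 1 lower, where 5.61% of all genes were higher and 5.91% lower.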

How the data were processed

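Poly(A) RNA was sequenced, and the authors deposited unnormalized read counts for 28266 gene symbols in 42 columns. The submitters' processing notes name hg38, DRAGEN, STAR 2.7.8a and DESeq2 1.32.0, whereas the study's methods describe Tophat alignment to an earlier build with HTSeq counting, so the build behind the counts is uncertain and overlapping genes may share or lose reads. Coordinates are RefSeq positions on GRCh38.p14, matched by symbol.

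Libraries were grouped by their labels into 12 groups (line, treatment and shRNA). No 2 replicates of the 7 libraries compared agreed within sampling noise. After filterByExpr had taken out genes of low count and TMM factors had scaled the libraries, all 42 libraries shared 1 quasi-likelihood fit (edgeR 4.0.16, robust, two-sided, R 4.3.3). Genes were called at a Benjamini-Hochberg adjusted p under 0.05 over all 15299 tested. CPM are counts over TMM-scaled library sizes, given as mean ± SD. Against a group at or under 3 counts per library, folds are bounds. In the table depths of 17123550 to 19522297 counts, 3 counts are 0.154 to 0.175 CPM.

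Named genes were up to 15 higher and 15 lower genes by log2 difference among those called in the same direction with all 3 shRNAs, without overlap in any set and averaging at least 100 counts in the group with more reads. Besides these, HRAS, ESR1 and members of 37 gene lists written from general knowledge may be named. No symbol of the list of mitochondrially encoded genes was found in the table. The members and lists were chosen with earlier results of these data known. Alternatives were DESeq2 size factors, no filter, the DESeq2 1.42.0 Wald test, only the libraries compared, the 21 DMSO libraries, an absolute log2 difference of at least 1, a block for the replicate number, and each library left out in turn. A GC content and length correction (natural splines with 5 degrees of freedom as offsets, 95.9% of tested genes with a value), leaving out both libraries with a GC trend, and summing counts over the 3 shRNAs were added after seeing the data. The scripts were tested on simulated counts.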

Additional observations from a re-analysis of the deposited data

Results flagged for a closer look

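For 8 of the 108 genes looked at, 1 of the 4 IMR90 libraries with DMSO and the control shRNA lay apart from the rest of its group, where chance gives about 1 in 20 groups. MMP1 was 7.84 CPM in replicate 2, with the nearest library at 12.2, and TMEM100 was 5.28 in replicate 3, with the nearest at 3.26. Replicate 1, a library with the GC trend, was apart for SOS1 (22.4 CPM, nearest 51.4), RRAS (160, nearest 83.1) and CDKN1A (937, nearest 434). ZPLD1 was 0.0459 in replicate 2 and 0 in the others, CCK was 0.0527 in replicate 4 (nearest 0.239) and LINC00906 was 0.196 in replicate 3 (nearest 0.718). These last 3 genes are near the floor of 3 counts.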

How the results depend on the processing

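The 53 genes called between the lines with the control shRNA were 50 with DESeq2 size factors, 40 with no filter on low counts and 46 with an absolute log2 difference of at least 1. The count moved to 165 with the DESeq2 Wald test, 284 in the fit of the 21 DMSO libraries and 2 in the fit of only the 7 libraries. Of the alternatives chosen after seeing the data, the correction for GC content and length gave 155, leaving out both libraries with the GC trend 20 (13 higher, 7 lower, 17 of the 53 among them), and counts summed over the 3 shRNAs 15 (13 higher, 2 lower, 13 of the 53). Leaving out 1 library gave 19 to 88 calls: 30 without ER:RAS replicate 1, 30 without replicate 2 and 20 without replicate 3, and 88, 19, 36 and 20 without IMR90 replicates 1 to 4. ADAM12, CST1, ESR1, HRAS, INA, ITPKA, KIFC1, NKD2, PLAU and SPOCK1 stayed called in all 7 of these fits. The causes were not tested, beyond the fewer libraries in some fits.

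With COPB2 shRNA 1, the 23 calls became 55 (DESeq2 Wald test), 56 (GC content and length), 72 (DMSO libraries), 3 (only the libraries compared) and 4 to 18 (leaving out a library, lowest without IMR90 replicate 2). With shRNA 2, the 42 calls became 117, 104, 139 and 13 under the same alternatives, 21 without the filter, and 11 to 68 when a library was left out (highest without ER:RAS replicate 3). The test of the line difference across shRNAs gave 0 calls in each alternative, leaving out a library included (0 to 0), except 2 with the DESeq2 Wald test. For 4OHT with the control shRNA, only the libraries compared gave 2911 in place of 6415 calls, and leaving out a library 5471 to 6517. For 4OHT with COPB2 shRNA, an absolute log2 difference of at least 1 left 5339 of 8817, and leaving out a library gave 8449 to 8865.

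Replicate numbers paired the lines in part only. Across genes, the deviations of same-numbered libraries (replicates 1, 2 and 3) correlated at -0.48, -0.47 and 0.72 with the control shRNA. They correlated at 0.43, -0.32 and 0.75 with shRNA 1 and at 0.62, -0.15 and 0.56 with shRNA 2. In these sets 1, 2 and 2 of 3 correlated best with their own number. Replicate 3 did so in each set, and replicate 2 in none. The main fit used no block. The replicate number as a block gave 202 calls with the control shRNA (all 53 among them), 74 with shRNA 1, 1936 with shRNA 2, 0 across shRNAs, 7942 for 4OHT with the control shRNA and 10139 with COPB2 shRNA. After the correction for GC content and length, NRAS (0.06) changed sign, as did the medians of 4 lists: the RAS to ERK components (0.04), adhesion receptors (0.02), NRF2 and redox defence (0.03) and alcohol, retinal and flavin oxidation (0.03). Of 1720 values for the 108 genes looked at across alternatives, 1301 kept their direction and side of the threshold, 326 lost a call, 92 gained one and 1 changed sign. At this depth, 3 counts are 0.154 to 0.175 CPM, so differences of genes near that level are bounds.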
